A study of Mus musculus with 6 samples.

Results

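Genes of the mouse major histocompatibility complex (MHC) and of antigen processing were followed in kidneys with and without Far2. The product of Far2, fatty acyl-CoA reductase 2, turns fatty acyl-CoA into fatty alcohol. Every deposited gene name that begins with H2-, apart from the H2-Ke genes, was taken, which gave 42 genes. The other 10 genes were B2m, Tap1, Tap2, Tapbp, Psmb8, Psmb9, Psmb10, Nlrc5, Cd74 and Ciita, so that 52 of the 23396 genes in the table were included. They fall into 3 classical class I genes (class Ia), 28 class I genes of the Q, T and M regions or named H2-Bl (class Ib), 9 class II genes, 8 accessory genes of class I, and Cd74 and Ciita of class II. H2-K2 and H2-Ea-ps were left unclassed.

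Total RNA depleted of ribosomal RNA was sequenced from the right kidney of 3 male wild-type mice (C57BL/6N) and 3 male homozygous knockout mice (C57BL/6N-Far2tm2a(KOMP)Wtsi/2J), all aged 6 months. The labels name no treatment and describe the mice of a group as biological replicates. Whether the groups were littermates is not given in the sources used here. The allele is present in every cell, so the design does not separate an effect in kidney cells from one elsewhere in the body. Libraries carry the numbers 0, 1 and 2 of the deposited table within each group, which name no particular mouse.

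The libraries held from 15261362 to 20631158 fragments assigned to genes. Far2 itself had from 22 to 40 fragments in the wild-type libraries and from 19 to 31 in the knockout libraries, counted over the whole gene, so it does not check the genotype labels. Markers of kidney tubule, such as Lrp2 and Umod, and of endothelium, such as Kdr, were present in all 6 libraries. Wild-type library 0 stood apart. It had 21.5 CPM (fragment counts scaled to library size, TMM-adjusted) of the tubular injury marker Havcr1 against 0.617 to 0.916 in the other libraries, and the highest summed markers of macrophages and of all leukocytes. Values without that library are given beside the main results.

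Class I molecules are made of an H2 heavy chain and the light chain encoded by B2m, and they show peptides from inside the cell to CD8 T cells on nearly every cell type. Peptides are cut by the proteasome, carried into the endoplasmic reticulum by the Tap1 and Tap2 transporter and loaded with the help of tapasin (Tapbp). Class II molecules are made of an alpha and a beta chain, show peptides from endosomes to CD4 T cells, and come mainly from dendritic cells, macrophages and B cells. Nlrc5 is the coactivator that switches on class I genes, and Ciita does so for class II genes. In kidney, class II RNA is carried mostly by resident immune cells, and injured tubule cells can also make it.

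In the deposited loci (mm10, as the table gives them) all 42 H2 genes lie on chromosome 17 between 33974658 and 37483529, a stretch of 3.51 Mb. GENCODE M21 (GRCm38, the assembly mm10 names) has an entry by name for 48 of the 52 genes, and none by that name for H2-L, H2-Q8, H2-Q9 and H2-T9. By GENCODE, H2-K1 lies at chr17:33996017-34000347, H2-Aa at chr17:34282744-34287823, H2-Eb1 at chr17:34305867-34316674, H2-D1 at chr17:35262730-35267499 and H2-Q4 at chr17:35379617-35385290. B2m lies apart from them, at chr2:122147686-122153083.

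Promoters of class I and class II genes share a module known from many species, the X and Y boxes, through which Nlrc5 and Ciita act. The Y box holds the letters ATTGG, which the factor NF-Y binds. The X box region lies further from the start of the gene and often holds the letters TGANG. The 6 windows of 120 bases below come from RefSeq promoters (GRCm38.p6) of genes on both sides. They are printed so that the shared module and its spacing can be seen beside the RNA levels. They are not simply the most abundant genes. H2-T23 and Tapbp, which also have promoters, were more abundant in wild type than H2-Q4 and are not printed. Capitals mark the Y box letters, the X box letters where they start 24 to 26 bases before those, any NF-kappaB-type match and any match of the interferon regulatory factor type. The NF-kappaB type was searched as GGGA followed, after 3 bases of any kind, by the letters CCC. The interferon type was searched as GAAA followed, after 2 bases of any kind, by a second GAAA. Each window is written 5′ to 3′ on the strand of the gene.
H2-K1: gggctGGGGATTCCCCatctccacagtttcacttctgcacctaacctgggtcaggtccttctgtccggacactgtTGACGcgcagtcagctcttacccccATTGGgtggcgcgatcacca
H2-D1: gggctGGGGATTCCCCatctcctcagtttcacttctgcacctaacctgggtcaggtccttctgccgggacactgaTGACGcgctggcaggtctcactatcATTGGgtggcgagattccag
B2m: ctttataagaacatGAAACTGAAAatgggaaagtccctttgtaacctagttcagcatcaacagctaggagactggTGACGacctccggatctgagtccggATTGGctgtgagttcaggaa
H2-Q4: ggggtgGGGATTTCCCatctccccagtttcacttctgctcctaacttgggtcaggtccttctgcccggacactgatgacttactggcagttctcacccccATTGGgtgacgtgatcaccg
H2-Aa: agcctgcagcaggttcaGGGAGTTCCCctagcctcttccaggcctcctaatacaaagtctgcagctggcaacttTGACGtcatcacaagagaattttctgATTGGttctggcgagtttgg
H2-Eb1: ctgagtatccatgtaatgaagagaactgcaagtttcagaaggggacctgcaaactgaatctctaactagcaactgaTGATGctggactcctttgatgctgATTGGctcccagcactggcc

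The windows are chr17:34000344-34000463 (minus strand) for H2-K1, chr17:35262918-35263037 (plus) for H2-D1, chr2:122147534-122147653 (plus) for B2m, chr17:35379438-35379557 (plus) for H2-Q4, chr17:34287852-34287971 (minus) for H2-Aa and chr17:34305708-34305827 (plus) for H2-Eb1. The X box letters began 25 bases before the Y box letters in H2-K1, H2-D1 and B2m, 26 before them in H2-Aa and 24 before them in H2-Eb1. In the H2-Q4 window the Y box letters were present and the X box letters at that spacing were not found. The NF-kappaB type was in the windows of H2-K1, H2-D1, H2-Q4 and H2-Aa, and the interferon type in that of B2m. Only exact matches were searched for, so near matches, such as tttcacttct in the windows of H2-K1, H2-D1 and H2-Q4, were left unmarked. A window without a match is therefore not shown to lack such a site. The H2-D1 window lies inside the GENCODE gene, which begins at 35262730, before the RefSeq start used here. RefSeq promoters, from 250 bases before to 50 after the start, matched 36 of the 52 genes, 20 of them tested. Read on either strand, ATTGG was in 30 of these 36 and in 37.9% of all 27025 promoters. The spaced X and Y pair was in 9 of the 36, namely B2m, H2-K1, H2-D1, H2-DMb1, H2-DMb2, H2-Aa, H2-Eb1, H2-Q7 and H2-M3, and in 0.966% of all promoters. The NF-kappaB type was in 7 of the 36 (H2-K1, H2-D1, H2-Q4, H2-Q6, H2-Q7, H2-Oa and H2-Aa) and in 5.4% of all promoters. The interferon type was in B2m, H2-T22 and H2-T23 and in 3.49%. These motifs were chosen after the sequences were seen, and a match is a description of letters and not a site of binding.

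In wild-type kidney, with library 0 included, class I RNA was abundant. Levels per length are given as FPKM (fragments scaled to transcript length and library size, as deposited). B2m stood at 333 ± 69.3 FPKM in wild type (SD, n = 3), H2-K1 at 97.8 ± 22.8 and H2-D1 at 93.5 ± 22.2. H2-K1 was slightly the higher in each wild-type library, at 124, 87.6 and 82 FPKM against 119, 85.5 and 76.4. Of the class Ib genes, H2-T23, which encodes Qa-1, was highest, at 50 ± 2.10 FPKM. It was followed by H2-T9, H2-Q4 and H2-T22 at 20.9 ± 3.78, 16.3 ± 0.974 and 14.8 ± 0.718 FPKM, whose ranges adjoin or overlap. H2-T9 and H2-T22 share a deposited locus and fragments were split between them, so their separate levels are uncertain. On the class II side Cd74, the invariant chain that escorts class II molecules to endosomes, stood at 115 ± 38.6 FPKM and H2-Aa, the alpha chain of the I-A molecule, at 87.8 ± 36.1. H2-Ab1, its beta chain, stood at 46.8 ± 17.2 and H2-Eb1, the beta chain of I-E, at 39.5 ± 12.3. H2-Ea-ps, the pseudogene left of the I-E alpha chain in C57BL strains, had 0 fragments in every library.

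**Figure D1:**
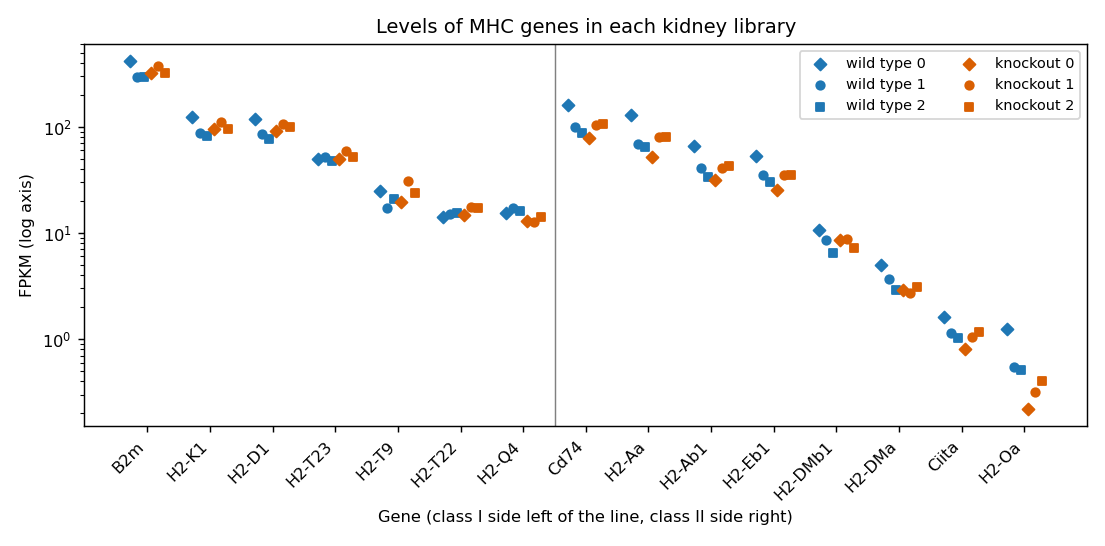
FPKM (log axis) of MHC genes in each of the 6 libraries, 3 wild type and 3 knockout, class I side left of the line and class II side right. Each point is 1 library, and B2m is the highest gene in all 6.

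Of the 52 genes, 33 passed the filter on low counts and were tested, and 0 of these passed edgeR's quasi-likelihood test of knockout against wild type (Benjamini-Hochberg adjusted p from 0.599 to 0.979), where 0.0% of all 14354 genes passed. An unadjusted p under 0.05 was found for H2-DMa, H2-L, H2-Oa and H2-Q4, all lower in knockout. That is 4 of 33, against 8.31% of all genes in either direction. Of all genes 5.14% had such a p with a lower knockout value and 3.17% with a higher one, where 0 of the 33 did. DESeq2 called 0 of the 33 and 0.0906% of all genes, and limma-voom called 0 of the 33 and 0.0% of all genes. The mean was lower in knockout for 23 of the 33, against 51.7% of all genes. The median log2 fold change was −0.13, and −0.007 over all genes tested. Without wild-type library 0 the mean was lower for 17 of the 33 and the median was −0.043. H2-L, H2-Oa and H2-Q4 were lower in every knockout library than in any wild-type library, where 6.97% of all genes were, and Tap2 was higher in every one, where 7.13% were.

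**Figure D2:**
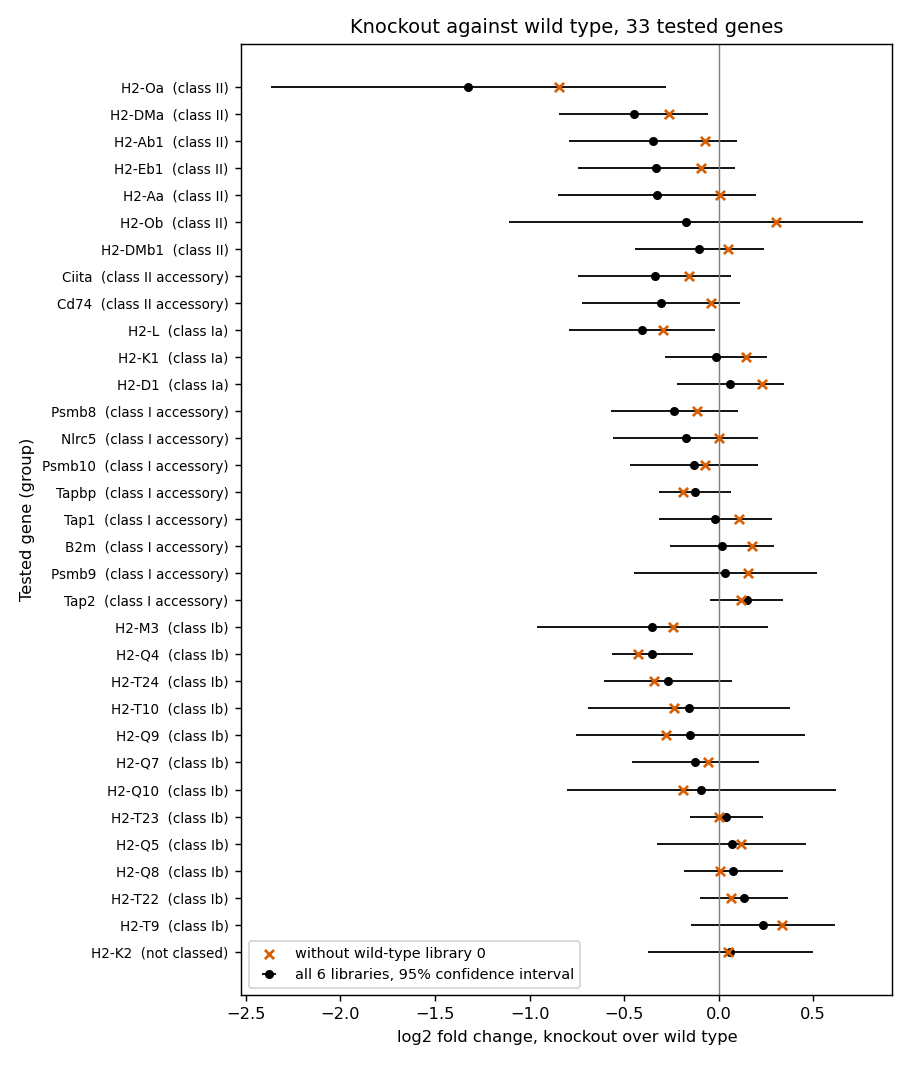
Log2 fold change, knockout over wild type, of the 33 tested genes, with the 95% confidence interval (bars) from all 6 libraries, and the value without wild-type library 0 (crosses). The class II genes, Cd74 and Ciita lie left of 0 with all libraries, and most of their crosses lie nearer to 0.

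The classical class I genes did not separate the genotypes. H2-K1 measured 229, 173 and 166 CPM in wild-type libraries 0, 1 and 2, and 175, 206 and 181 CPM in knockout libraries 0, 1 and 2. The knockout values lie inside the wild-type range, and the log2 fold change was −0.02 ± 0.12 (SE), with a 95% confidence interval of −0.28 to 0.25 (edgeR, adjusted p = 0.979). H2-D1 measured 226, 172 and 160 CPM in wild type and 176, 212 and 195 CPM in knockout. It had a log2 fold change of 0.06 ± 0.13 (interval −0.22 to 0.34, adjusted p = 0.894). Without wild-type library 0, which was highest for both genes, the values were 0.14 for H2-K1 and 0.23 for H2-D1 (unadjusted p = 0.0361, edgeR adjusted p = 0.419). B2m, the shared light chain, measured 257, 185 and 195 CPM in wild type and 200, 239 and 206 CPM in knockout. Its log2 fold change was 0.02 ± 0.12 (interval −0.26 to 0.29, adjusted p = 0.975), and 0.18 without wild-type library 0. In FPKM, B2m stood at 1.64 to 1.82 times the summed class Ia genes and H2-D1 with H2-L at 0.972 to 1.06 times H2-K1 in every library. These 3 genes thus kept their proportions while the libraries differed in level.

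H2-L shares its deposited locus with H2-D1, and the authors' counting split the fragments between them, 98.1% to H2-D1 and 1.9% to H2-L. C57BL mice are known to lack a separate L gene. Its values of 4.75, 3.8 and 3.99 CPM in wild type and 3.16, 2.79 and 3.44 CPM in knockout (log2 fold change −0.41 ± 0.17, unadjusted p = 0.0422, edgeR adjusted p = 0.599) are uncertain for that reason. With the fragments of both genes summed, the log2 fold change was 0.05. The same split touched H2-Q6 with H2-Q8, H2-Q7 with H2-Q9 (75.5% and 24.5%) and H2-T22 with H2-T9 (41.7% and 58.3%). Summed, these loci had log2 fold changes of 0.08, −0.13 and 0.19.

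Among class Ib genes, H2-Q4 had the smallest p of all 33. H2-Q4 encodes Qb-1, a class I-like protein of the Q region. It measured 30.5, 37.0 and 35.2 CPM in wild type and 25.9, 25.8 and 28.8 CPM in knockout. All 3 knockout libraries lay below all 3 wild-type libraries. The log2 fold change was −0.35 ± 0.095 (interval −0.56 to −0.14), with an unadjusted p of 0.00451 and an edgeR adjusted p of 0.599. Unlike the class II genes it was not raised in wild-type library 0, where it stood at 0.999 times the mean of the other 5. Without that library its log2 fold change was −0.43 (unadjusted p = 0.00129, edgeR adjusted p = 0.257).

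The other class Ib genes spread on both sides of 0. Of the 12 tested, 7 had a lower and 5 a higher mean in knockout, with a median log2 fold change of −0.11, or −0.12 without wild-type library 0. H2-T23, a ligand of NK cell receptors, measured 72.9, 82.1 and 76.7 CPM in wild type and 72.4, 88.7 and 77.5 CPM in knockout, and its log2 fold change was 0.04 ± 0.086. H2-T9 had the highest value of the class, 0.23 ± 0.17, and H2-M3, which presents formylated peptides, the lowest, −0.35 ± 0.27. The separate values of H2-T9 and H2-T22 are uncertain, since fragments were split between them. H2-M3 was lowest in knockout library 0, at 1.65 CPM, and overlapped between groups. H2-T24 (−0.27), H2-Q9 (−0.15), H2-T10 (−0.16), H2-Q7 (−0.12) and H2-Q10 (−0.09) lay below 0, and H2-T22 (0.13), H2-Q8 (0.08) and H2-Q5 (0.07) above it. H2-K2, unclassed, stood at 0.06 ± 0.19. None of these had an unadjusted p under 0.05.

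The transporter and loading genes differed little between the groups. Tap1 measured 13, 10.8 and 9.60 CPM in wild type and 9.85, 12.3 and 11.0 CPM in knockout, with a log2 fold change of −0.02 ± 0.13, or 0.11 without wild-type library 0. Tap2, its partner in the same transporter, measured 15.3, 17.2 and 15.2 CPM in wild type and 17.5, 18.1 and 17.4 CPM in knockout. The Tap2 groups did not overlap, but by a narrow margin, and its log2 fold change of 0.15 ± 0.086 had an unadjusted p of 0.119. Tapbp, which holds empty class I molecules at the transporter, measured 69.2, 81.0 and 77.7 CPM in wild type and 76.6, 66.3 and 66.2 CPM in knockout. Its log2 fold change was −0.12 ± 0.085. Nlrc5 measured 12.0, 8.49 and 8.82 CPM in wild type and 7, 9.11 and 9.87 CPM in knockout (−0.18 ± 0.17). Without wild-type library 0 the Nlrc5 value was 0.002.

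The inducible subunits Psmb8, Psmb9 and Psmb10 replace Psmb5, Psmb6 and Psmb7 in the immunoproteasome, which favours peptides that fit class I molecules. Psmb8 measured 11.7, 9.91 and 8.69 CPM in wild type and 7.57, 10.2 and 8.19 CPM in knockout, with a log2 fold change of −0.24 ± 0.15, or −0.12 without wild-type library 0. Psmb9 measured 3.92, 3.65 and 2.47 CPM in wild type and 3.02, 4.12 and 3.29 CPM in knockout (0.03 ± 0.22, and 0.16 without that library). The groups overlapped for both genes. Psmb10 measured 11.0, 10.8 and 8.69 CPM in wild type and 8.31, 11.4 and 8.36 CPM in knockout (−0.13 ± 0.15, and −0.073 without that library), again with overlap. In FPKM the inducible subunits stood far below the subunits they replace. The ratio of Psmb8 to Psmb5 was 0.0819, 0.0741 and 0.0598 in wild type and 0.0509, 0.0593 and 0.0536 in knockout, so the groups adjoined without overlap. The ratio of Psmb9 to Psmb6 lay between 0.0316 and 0.0475 and that of Psmb10 to Psmb7 between 0.0466 and 0.0678, with overlap between groups in both.

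**Figure D3:**
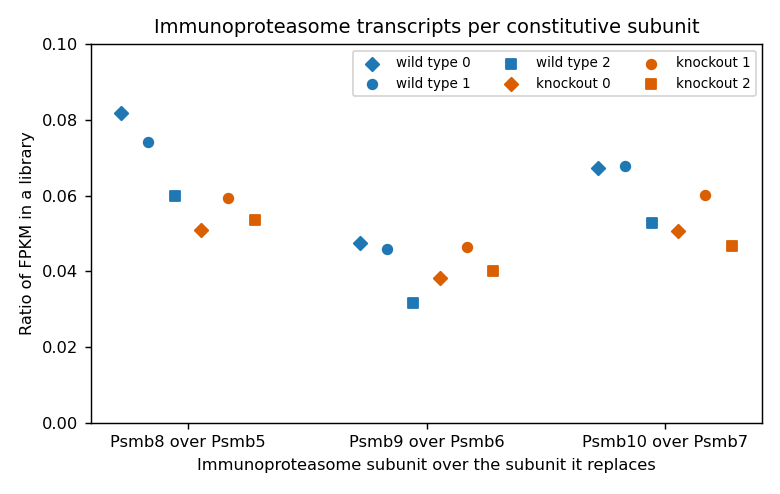
Ratio of FPKM of each inducible proteasome subunit to the constitutive subunit it replaces, 1 point per library, by genotype. All ratios lie between 0.0316 and 0.0819, and the groups overlap for Psmb9 and Psmb10.

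On the class II side the means of all 9 tested genes were lower in knockout, and for 8 of them, all but H2-Ob, the difference was smaller in size without wild-type library 0. All 7 tested class II genes had a log2 fold change below 0, as did Cd74 and Ciita. Wild-type library 0 was the highest of the 6 libraries for all 9 of these genes, where it was highest for 17.1% of all genes. Knockout library 0 was the lowest for 6 of the 9, against 13.3% of all genes. The median log2 fold change of the 7 class II genes was −0.33 with all libraries and −0.07 without wild-type library 0, when 4 lay below 0 and 3 above. These genes vary together from mouse to mouse and are not independent counts.

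H2-Aa measured 134, 77 and 73.6 CPM in wild type and 55.3, 85.5 and 86.6 CPM in knockout. Wild-type library 0 lay above and knockout library 0 below the other 4, which overlapped between the genotypes. The log2 fold change was −0.33 ± 0.23 (interval −0.85 to 0.20, edgeR adjusted p = 0.690), and 0.009 without wild-type library 0. H2-Ab1 measured 83.2, 55.8 and 46.3 CPM in wild type and 39.2, 51.5 and 55.3 CPM in knockout (−0.35 ± 0.20, and −0.07 without that library). H2-Eb1 measured 96.5, 67.4 and 58.5 CPM in wild type and 46.2, 66.1 and 65.2 CPM in knockout (−0.33 ± 0.19, and −0.09 without it). Cd74 measured 231, 153 and 137 CPM in wild type and 114, 151 and 158 CPM in knockout (−0.31 ± 0.19, and −0.04 without it). The 4 genes gave the same order of high and low libraries at both ends. Ciita measured 10.8, 8.06 and 7.40 CPM in wild type and 5.52, 7.24 and 8.03 CPM in knockout, with a log2 fold change of −0.34 ± 0.18 (edgeR adjusted p = 0.610), and −0.16 without wild-type library 0. Like H2-Aa and Cd74, Ciita was highest in wild-type library 0 and lowest in knockout library 0.

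The chains kept close proportions while their sum varied. The summed FPKM of H2-Aa, H2-Ab1 and H2-Eb1 was 249, 145 and 128 in wild type and 109, 156 and 159 in knockout. The FPKM ratio of H2-Aa to Cd74 lay between 0.667 and 0.814 over the 6 libraries, that of H2-Ab1 to H2-Aa between 0.512 and 0.605, and that of H2-Eb1 to H2-Aa between 0.413 and 0.506. Set against the summed class Ia genes, class II stood at 1.01, 0.824 and 0.792 in wild type and 0.575, 0.710 and 0.803 in knockout, with overlap between the groups. The ratio of Ciita to Nlrc5 was 1.13, 1.18 and 1.04 in wild type and 0.990, 1 and 1.03 in knockout, so the groups adjoined without overlap. Apart from this ratio and that of Psmb8 to Psmb5, every ratio formed overlapped between the groups. How often ratios of other genes adjoin without overlap was not counted.

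H2-DM exchanges the invariant chain remnant for peptide in endosomes, and H2-DO, made of H2-Oa and H2-Ob, restrains it. H2-DMa measured 8.73, 6.88 and 5.52 CPM in wild type and 5.07, 4.92 and 5.55 CPM in knockout. Its groups overlapped narrowly, and the log2 fold change was −0.45 ± 0.18 (unadjusted p = 0.0291, edgeR adjusted p = 0.599), or −0.27 without wild-type library 0. H2-DMb1, the partner chain, measured 15.1, 12.8 and 9.80 CPM in wild type and 12.1, 12.7 and 10.5 CPM in knockout (−0.10 ± 0.15, and 0.047 without that library). H2-Oa was scarce, with 65 fragments over all libraries, and measured 1.29, 0.617 and 0.584 CPM in wild type and 0.228, 0.332 and 0.431 CPM in knockout. Its groups did not overlap, and its log2 fold change was −1.32 ± 0.47 (unadjusted p = 0.0181, edgeR adjusted p = 0.599), or −0.85 without wild-type library 0. H2-Ob measured 2.53, 0.996 and 1.43 CPM in wild type and 1.02, 1.06 and 2.26 CPM in knockout, with overlap. Its log2 fold change was −0.17 ± 0.42, and 0.30 without wild-type library 0.

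**Figure D4:**
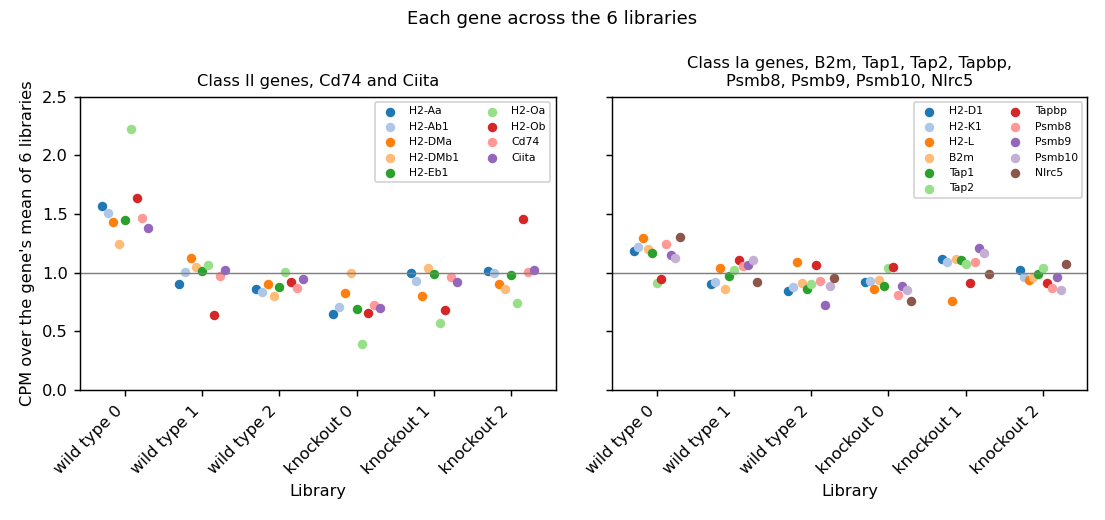
CPM of each gene divided by its mean over the 6 libraries, 1 point per gene and library, class II genes with Cd74 and Ciita at left and class Ia with accessory genes at right. All 9 tested genes of the class II side are highest in wild-type library 0, up to 2.94 times the mean of the other 5 libraries for H2-Oa.

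Of the 52 genes, 19 had too few fragments to test, 16 of them class Ib. Of these 19, 7 had under 1 fragment over all libraries and 7 others had from 1 to 16. H2-DMb2, H2-Q2, H2-Bl, H2-M2 and H2-Eb2 had 71, 63, 36, 33 and 25. H2-M2 had 23 fragments in wild-type library 0 and from 0 to 4 in each of the others. H2-DMb2 had 29 in that library and from 6 to 10 in the others. H2-Bl did the opposite, with 2 fragments in wild-type library 0, 11 and 12 in the other wild-type libraries, and 2, 2 and 7 in knockout.

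In a whole kidney, fewer cells of a type and less RNA per cell cannot be told apart, and class II RNA comes largely from immune cells. Summed markers of macrophages and of all leukocytes varied between the libraries in a like way, and those of B cells did not. Summed over 8 of 8 macrophage markers, levels were 240, 128 and 125 CPM in wild type and 106, 140 and 130 CPM in knockout. Lyz2, which encodes lysozyme, was the marker that differed most in that sum, at 83.7, 14 and 14.1 CPM in wild type and 9.96, 22.9 and 20.3 CPM in knockout. Csf1r was not highest in wild-type library 0, at 61.2, 60.9 and 63.7 CPM in wild type and 49.2, 59 and 56.4 CPM in knockout. Summed over 3 of 3 leukocyte markers, among them Ptprc, levels were 61.6, 36.9 and 31.5 CPM in wild type and 24.4, 31.3 and 43.5 CPM in knockout. Wild-type library 0 was highest and knockout library 0 lowest in both sums, as for H2-Aa and Cd74. Taken singly, wild-type library 0 was highest for 7 of the 8 macrophage and 3 of the 3 leukocyte markers, against 17.1% of all genes. Knockout library 0 was lowest for only 4 of the 8 and 2 of the 3, against 13.3% of all genes. Summed B cell markers were low, at 4.52, 1.52 and 2.92 CPM in wild type and 1.2, 2.26 and 5.34 CPM in knockout. They were highest in knockout library 2, and Pax5 was at 0 in 1 library. Summed T and NK cell markers ranged from 2.85 to 8.39 CPM in wild type and from 1.82 to 4.19 CPM in knockout, with Cd3d and Ncr1 each at 0 in a library. Tubule markers summed to 13767 to 16972 CPM in wild type and 15393 to 16280 CPM in knockout. The part of immune cell number, and of the injury markers of wild-type library 0, in the class II values was not tested.

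Markers of dendritic cells, a main class II cell type of the kidney, were laid out differently, though their sum was also highest in wild-type library 0. Summed over 6 of 6 markers, levels were 29.3, 24.7 and 21.5 CPM in wild type and 17.1, 16.5 and 20.3 CPM in knockout. The groups did not overlap, by a narrow margin. How often sums of other gene lists do so was not counted. Zbtb46 was the largest part of that sum, at 10.7, 11.3 and 9.28 CPM in wild type and 9.28, 7.84 and 8.79 CPM in knockout. Itgax and Flt3, 2 of the 6, were lower in every knockout library than in any wild-type library, where 6.97% of all genes were. The groups of Zbtb46, Xcr1, Clec9a and Cd209a overlapped. Itgax (CD11c) measured 8.93, 5.83 and 4.54 CPM in wild type and 2.5, 4.19 and 4.26 CPM in knockout. Its log2 fold change was −0.83 ± 0.28, or −0.52 without wild-type library 0. Flt3, the receptor that dendritic cells need to develop, measured 1.54, 1.75 and 1.17 CPM in wild type and 0.512, 0.332 and 1.08 CPM in knockout (−1.18 ± 0.39, and −1.17 without it). All 6 markers had a log2 fold change below 0, with and without wild-type library 0, and the median was −0.80 with it and −0.39 without it. The unadjusted p was under 0.05 for 4 of the 6, Itgax, Flt3, Zbtb46 and Xcr1, where 8.31% of all genes had one, and for 1 of the 6 without wild-type library 0, where 11.2% had one. With all libraries edgeR's adjusted p ran from 0.599 to 0.747 over the 6.

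**Figure D5:**
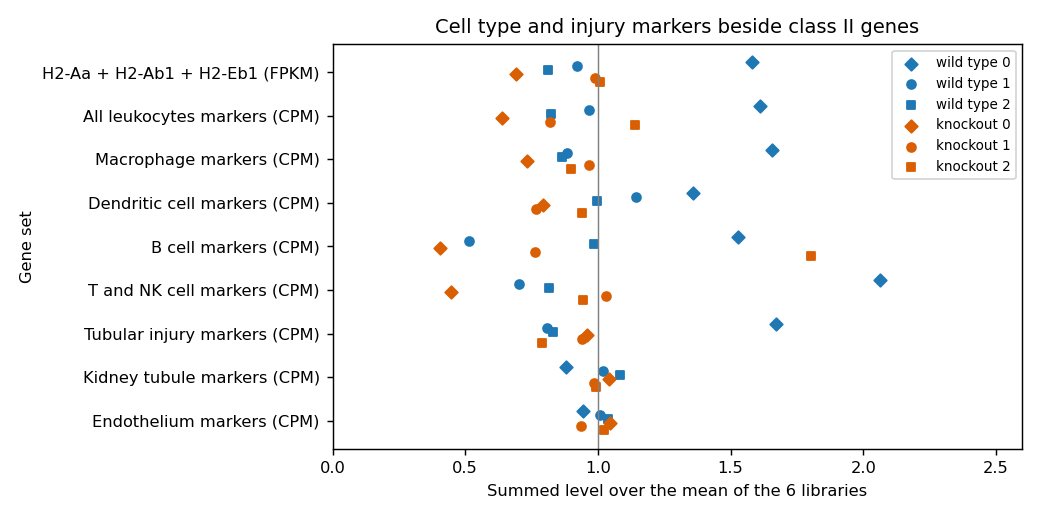
Summed level of each marker list, and of class II genes, divided by the mean of the 6 libraries, 1 point per library. Wild-type library 0 is highest for macrophage, leukocyte, dendritic cell, T and NK cell, tubular injury and class II sums. The dendritic cell sums of the groups do not overlap, by a narrow margin, while the groups of Zbtb46, Xcr1, Clec9a and Cd209a do when taken singly.

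Other genes of the pathway gave 0 calls in each of 6 lists (edgeR, adjusted p under 0.05). Of 7 genes of peptide loading and trimming, 5 had a higher mean in knockout, with a median log2 fold change of 0.09, or 0.07 without wild-type library 0. The smallest p was that of Erap1, the aminopeptidase that trims class I peptides, at 58.9, 53.2 and 52.4 CPM in wild type and 59.7, 65.1 and 64.8 CPM in knockout (0.20 ± 0.074, unadjusted p = 0.0215, adjusted p = 0.599). Of 8 genes of the constitutive proteasome and its activators, 6 were higher (median 0.09, and 0.12 without that library), led by Psmb7 at 0.17 ± 0.070. Of 8 genes of endosomal processing 5 were higher (median 0.07, and 0.11 without that library). Sppl2a, the protease that clears the invariant chain remnant, measured 145, 128 and 144 CPM in wild type and 155, 174 and 159 CPM in knockout (0.23 ± 0.075, unadjusted p = 0.0135, adjusted p = 0.599). Over these 3 lists Erap1, Psmb7, Sppl2a and Ctsb were higher in every knockout library than in any wild-type library, where 7.13% of all genes were. Tapbpl, a tapasin-like peptide editor, was lower in every one, at 14.8, 13.7 and 14.4 CPM in wild type and 12, 12.6 and 12.9 CPM in knockout, where 6.97% of all genes were.

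Of 11 transcription factors of MHC genes, 7 had a lower mean in knockout (median −0.06, and −0.09 without wild-type library 0). The smallest p was that of Irf2, a factor that binds interferon-stimulated promoters, at 9.43, 9.30 and 8.05 CPM in wild type and 6.21, 7.84 and 7.17 CPM in knockout. Its groups did not overlap, in 1 of 11 genes where 6.97% of all genes were lower without overlap, and the log2 fold change was −0.34 ± 0.13 (unadjusted p = 0.0254, edgeR adjusted p = 0.599). The X box factors Rfx5 (−0.12 ± 0.085), Rfxap (−0.18 ± 0.12) and Rfxank (−0.17 ± 0.12) lay below 0 with no unadjusted p under 0.05. Of the 15 genes of interferon gamma signalling, 8 had a lower and 7 a higher mean (median −0.05), and Igtp, an interferon-induced GTPase, had the smallest p (0.25 ± 0.14, unadjusted p = 0.119). Of 9 class I-like genes outside the H2 names 6 were tested, 3 on each side of 0. Fcgrt, the neonatal Fc receptor that pairs with B2m, had the smallest p (0.12 ± 0.069).

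The authors' deposited table tested 34 of the 52 genes and marked 0 as significant, against 0.657% of the 13404 genes it tested. In the authors' deposited table, a p-value under 0.05 stood beside 8 of the 34, where 7.39% of all genes had one and 4.74% had one with a lower knockout value. These were H2-Aa, H2-Ab1, H2-Eb1, H2-DMa, H2-Oa, H2-Q4, Cd74 and Ciita, all lower in knockout. The smallest q-value of the 34 in the authors' deposited table was 0.371, for H2-Eb1, with a log2 fold change of −0.31. H2-Q4 had a log2 fold change of −0.30 and a q-value of 0.471 in the authors' deposited table.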

How the data were processed

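RNA-seq of right kidneys from 3 knockout and 3 wild-type mice was analysed. Per the labels' protocols, libraries were stranded and depleted of ribosomal RNA. The submitters' processing notes list Cuffdiff, Cufflinks 2.2.1, TopHat2 2.0.13, cutadapt 1.2.1, SAMtools 1.2, Bowtie2 2.2.3 and the mm10 build, without saying what each did. Gene models, strand setting and treatment of multiply aligned fragments were not given in the sources used here, so overlapping genes and near-identical copies are uncertain. For each gene and library, the deposited values are an estimated count of fragments and an FPKM. The comparison table that the authors deposited holds group mean FPKM, a log2 fold change, a p-value and a q-value, per the file headers. Estimated counts were not whole in 312 genes, 8 of them described here, where fragments were split between copies.

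After rounding, low estimated counts were removed with filterByExpr. The quasi-likelihood F test of edgeR 4.0.16 (TMM scaling, two-sided, no covariates, R 4.3.3) was run over all 14354 genes kept, with Benjamini-Hochberg adjustment and a threshold of 0.05. The biological coefficient of variation was 10.1%. CPM used TMM-scaled library sizes. Libraries held from 15261362 to 20631158 fragments, so counting error is small for abundant genes and large for those with few fragments. Libraries of a group differed by 5.89 to 23.7 times the counting variance, more than 1 library deposited again would. The genes and the lists were chosen with earlier results of these data known, and they are described by counts and medians without a set test. Values are given in full for the main class I, class II and processing genes and by counts or ranges for the rest. One gene with the smallest p was named from each pathway list, and others, Rfx5, Rfxap, Rfxank, Itgax, Flt3, Lyz2, Csf1r, Ctsb and Tapbpl among them, were named after their values were seen. Trac was not matched in the table, and Adgre1 was matched under its older name Emr1.

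The alternatives tried were DESeq2 1.42.0, limma-voom (limma 3.58.1), limma on log2(FPKM + 1) or log2(FPKM + 0.1), scaling by RLE or upper quartile, keeping all genes or those above 1 CPM in 3 libraries, a threshold of 0.10 and leaving out each library. Summing the loci that share fragments was added after the data were seen. The test was tried on simulated data first. Promoters came from the RefSeq table, taking the first start listed for each gene.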

Additional observations from a re-analysis of the deposited data

How the results depend on the processing

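Among the 33 tested genes 0 were called under any of 15 alternatives, and the smallest adjusted p was 0.257 (edgeR's quasi-likelihood test, H2-Q4 without wild-type library 0). Over all genes the count called was 0, became 1 with no filter on low counts, 13 with DESeq2 and 1 at a threshold of 0.10, and ran from 0 to 1 with a library left out, the 1 call being made with wild-type library 2 left out and again with knockout library 2 left out. The median log2 fold change of the 7 class II genes ran from −0.47 to −0.07 with a library left out, and it was −0.072 without wild-type library 0. Of the 33 genes, 18 kept the sign of their log2 fold change, 13 changed it only with a library left out, and H2-K1 and Tap1 also did under another alternative. On log2(FPKM + 1) and log2(FPKM + 0.1) with limma, H2-K1 stood at 0.054 and 0.055 and Tap1 at 0.019 and 0.027. With a library left out, ranges were −0.474 to 0.009 for H2-Aa, −0.246 to 0.047 for H2-DMb1, −0.66 to 0.303 for H2-Ob, −0.098 to 0.144 for H2-K1, −0.036 to 0.229 for H2-D1, −0.028 to 0.19 for H2-K2 and −0.07 to 0.178 for B2m. They were −0.286 to 0.113 for H2-Q10, −0.029 to 0.143 for H2-Q5, −0.326 to 0.104 for H2-Q9, −0.333 to 0.02 for H2-T10 and −0.045 to 0.105 for H2-T23. They were −0.107 to 0.107 for Tap1, −0.129 to 0.156 for Psmb9 and −0.281 to 0.002 for Nlrc5. The cause was not tested. Fold changes on log2(FPKM + pseudocount) can understate the change of low genes. H2-Oa stood at −0.406 on log2(FPKM + 1), against −1.324 in the main fit. Other low genes went the other way, among them Psmb9, at 0.116 against 0.034, H2-K2, H2-Q5 and H2-Q8. No paired analysis was possible because the labels carry no replicate numbers shared between the groups and the library numbers match no sample label. Depth limits H2-Oa, H2-Q10 and the 19 untested genes most.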

Other observations

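Without wild-type library 0, 13 of the 15 genes of interferon gamma signalling had a higher mean in knockout, with a median log2 fold change of 0.31, where the median of all genes tested was 0.002. With all 6 libraries 7 of the 15 had a higher mean. Without that library 5 of the 15 had an unadjusted p under 0.05, against 11.2% of all genes, and 0 passed edgeR's test after adjustment. Iigp1, an interferon-induced GTPase that attacks the vacuoles of parasites, measured 21.5, 11.2 and 13.8 CPM in wild type and 16, 24.8 and 20.3 CPM in knockout. Cxcl9, a chemokine that draws T cells, measured 3.77, 0.759 and 0.973 CPM in wild type and 1.59, 2.46 and 1.89 CPM in knockout. Both were higher in every knockout library than in wild-type libraries 1 and 2, and they were chosen after their values were seen. H2-K1, H2-D1 and B2m followed the same layout, each higher in every knockout library than in wild-type libraries 1 and 2. The share of all genes with that layout was not counted, so it is not known how common it is.

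Ctss, the cathepsin that cuts the invariant chain, measured 43.6 CPM in wild-type library 0 and from 13 to 18.2 CPM in the others. Like Cd74 it was lowest in knockout library 0. It was also chosen after its values were seen.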
